A study of Caenorhabditis elegans with 36 samples.

Results

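Between days 7 and 9 of adulthood, many transcripts of yolk proteins, lysosomal proteases, secreted immune effectors, abundant cuticle collagens, the basement membrane and body wall muscle fell in control *C. elegans*, and those of many sperm, germline, DNA repair and mitochondrial ribosome genes rose. These results come from 6 of the 36 RNA-seq libraries of an aging series. The libraries were chosen by their labels as those of worms fed the empty vector (ev), with 3 biological replicates at day 7 and 3 at day 9. All worms of the series were wild-type N2 fed HT115 *E. coli*, a bacterial strain that delivers double-stranded RNA to the worm through its food. For the ev groups these bacteria carried the vector without an insert. For the *cco-1* RNAi groups of the same days, 50% of the bacteria expressed the *cco-1* RNAi construct, whose target is a nuclear gene for a component of respiratory complex IV (cytochrome c oxidase), and the other 50% were ev bacteria. Each library came from a pool of whole worms, so that a fall in a tissue's transcripts from fewer cells of that tissue and a fall from less RNA per cell cannot be told apart. The sample labels state an RNAi start at the L1 stage and a collection at the L4 or young adult stage for all samples alike, and the days of adulthood used here are those of the sample titles.

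In the adult hermaphrodite, the intestine makes the vitellogenins, yolk proteins that are secreted into the body cavity and taken up by oocytes. The same cells digest bacteria, store fat, and secrete lysozymes, lectins and saposin-like proteins against ingested microbes, and their lysosome-related organelles hold aspartic and cysteine cathepsins and an acidifying proton pump. Many of these genes carry GATA sites in their promoters and are activated by ELT-2, the main GATA factor of the differentiated gut. The germline lies inside the same animal, and its transcripts are counted together with those of the soma.

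The values were CPM (read counts scaled to library size), and apart from the few highest they had nearly the same distribution in each library. The 10th, 50th and 100th highest values were 3019, 1511 and 961.6 CPM in every one of the 36 libraries. The most abundant genes therefore had little or no spread between replicates, and their CPM largely follow their ranks. The part of the falls of top-ranked genes in the rises of genes ranked below them was not tested. Ranks given beside the levels of some of them are ranks among the genes of the table, and features not used here can lie above or between them. Read depth is not given by the table. CPM summed to 916765 to 946044 in the 6 libraries. Across genes, log2(CPM + 1) had a lowest correlation of 0.9978 between day 7 libraries and of 0.9974 between day 9 libraries, and a highest correlation of 0.9644 between a day 7 and a day 9 library, and genes are not independent replicates. Of 18949 genes in the table, 15713 reached 1 CPM in at least 3 of the 36 libraries and were tested.

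Day 9 differed from day 7 in 5298 genes, or 33.7% of those tested, where a gene counted as different if limma gave it an adjusted P (Benjamini-Hochberg) below 0.05 and its log2FC exceeded 0.5 in either direction. They divided into 2692 higher genes (17.1%) and 2606 lower genes (16.6%). These shares are the background for the counts of gene lists given below. The median log2FC over all genes tested was 0.04. The falls were larger than the rises. The lower genes had a median log2FC of -0.84 and reached -3.91, with 186 genes below -2, whereas the higher genes had a median of 0.79 and reached 2.24, with 2 genes above 2. The 3 day 9 libraries did not overlap the 3 day 7 libraries in 2689 of the 2692 higher genes and in 2603 of the 2606 lower genes, and in 74.1% of all genes tested. The lower genes were the more abundant ones at day 7, with a median of 11.8 CPM against 4.63 CPM for the higher genes. They took 23.9% to 24.1% of all CPM of the tested genes in the day 7 libraries and 8.94% to 9.73% in the day 9 libraries, whereas the higher genes went from between 8.19% and 8.47% to between 15.1% and 15.8%. Percentages of CPM, here and below, are shares of the deposited values. These had nearly the same distribution in each library, so the percentages need not be shares of reads. The part of the falls of abundant genes in the rises of others was not tested. All log2FC are differences of log2(CPM + 1), which understates the change of genes at a few CPM.

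The largest fall in abundance was that of the yolk proteins. All 6 *vit* genes fell, with a median log2FC of -2.72. Together they made up 7.34% to 7.36% of all CPM in the day 7 libraries, and 1.84%, 1.93% and 2.46% in the day 9 libraries. *vit-4* (WBGene00006928, chromosome X, 3558769 to 3563965) was at 682, 636 and 669 CPM in the day 7 libraries and 22.8, 73.7 and 46.9 CPM in the day 9 libraries. Every day 7 library was above every day 9 library by a wide margin, and the day 9 libraries differed among themselves more than those of day 7 (log2FC -3.91, SE 0.29, adjusted P = 1.11e-11). *vit-3* was at 651, 538 and 555 CPM at day 7 and 23.1, 65.8 and 44.01 CPM at day 9 (log2FC -3.80, SE 0.28, adjusted P = 9.3e-12). It had the same order of day 9 libraries as *vit-4*, with library 2 highest and library 1 lowest. *vit-3*, *vit-4* and *vit-5* are near-identical copies, so that the split of reads among them is uncertain. *vit-1* was at 538, 436 and 486 CPM at day 7 and 41.1, 58.7 and 53.2 CPM at day 9 (log2FC -3.24, SE 0.17, adjusted P = 1.53e-14).

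*vit-2*, *vit-6* and *vit-5* were the 1st, 2nd and 3rd of the genes in the table in each day 7 library. *vit-2* was at 29967, 29967 and 29967 CPM at day 7 and 8371, 8371 and 11951 CPM at day 9, and its rank at day 9 was 3, 3 and 2 (log2FC -1.67, SE 0.16, adjusted P = 1.56e-09). *vit-6* was at 25810, 25810 and 25810 CPM at day 7 and 4771, 5419 and 6750 CPM at day 9, with ranks of 6, 5 and 4 (log2FC -2.21, SE 0.20, adjusted P = 3.82e-10). *vit-5* was at 11951, 11951 and 11951 CPM at day 7 and 3643, 3643 and 3643 CPM at day 9, with rank 7 in each day 9 library (log2FC -1.71, SE 0.18, adjusted P = 7.07e-09). At day 9 the highest of the genes in the table was *eef-1A.1*, a gene for the translation elongation factor eEF1A (WBGene00001168, chromosome III, 6970026 to 6971712), which was at 6750, 6750 and 6750 CPM at day 7 and 18128, 18128 and 18128 CPM at day 9 (log2FC 1.43, SE 0.13, adjusted P = 3.52e-10). Its rank went from 4 in each day 7 library to 1 in each day 9 library. The same value of 6750 CPM was that of *vit-6* in day 9 library 3, at rank 4. The part of the yolk genes' loss of rank in the rise of *eef-1A.1* was not tested.

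The intestine's own markers fell with the yolk genes. Of 16 markers tested, 14 fell and none rose, with a median log2FC of -1.19. Their summed level was 627 to 647 CPM in the day 7 libraries and 243 to 251 CPM in the day 9 libraries, lower in each day 9 library but well above 0. *elo-5*, an elongase that makes branched-chain fatty acids in the gut, was at 43.4, 42.7 and 44.9 CPM at day 7 and 4.48, 9.498 and 6.40 CPM at day 9 (log2FC -2.57, SE 0.14, adjusted P = 1.66e-14). *ges-1*, the gut esterase, was at 23.9, 21.4 and 23.4 CPM at day 7 and 4.01, 4.63 and 6.27 CPM at day 9 (log2FC -2.02, SE 0.12, adjusted P = 2.56e-17). Neither gene had a day 9 library near its lowest day 7 library. *vha-6*, the proton pump subunit of the apical gut membrane, fell from a mean of 88.4 to 24.5 CPM (log2FC -1.81), and *act-5*, the actin of the gut microvilli, from 168 to 66.1 CPM (log2FC -1.33). Regulators of the gut fell as well. *elt-2* (WBGene00001250, chromosome X, 10481240 to 10483441) was at 17.3, 19.1 and 17.6 CPM in the day 7 libraries and 7.21, 6.77 and 7.64 CPM in the day 9 libraries (log2FC -1.21, SE 0.087, adjusted P = 8.26e-15). Its day 7 and day 9 ranges were apart. *elt-7*, another gut GATA factor, was at 7.30, 7.80 and 7.28 CPM at day 7 and 4.38, 5.44 and 4.90 CPM at day 9 (log2FC -0.52, SE 0.11, adjusted P = 9.57e-05), just past the threshold, and it missed the threshold without day 7 replicate 2 (log2FC -0.49) or without day 9 replicate 1 (log2FC -0.46). Of 10 GATA factors, 4 fell and none rose, with a median log2FC of -0.09. *elt-3*, a hypodermal GATA factor, fell from 24.4 to 13.5 CPM (log2FC -0.82).

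**Figure D1:**
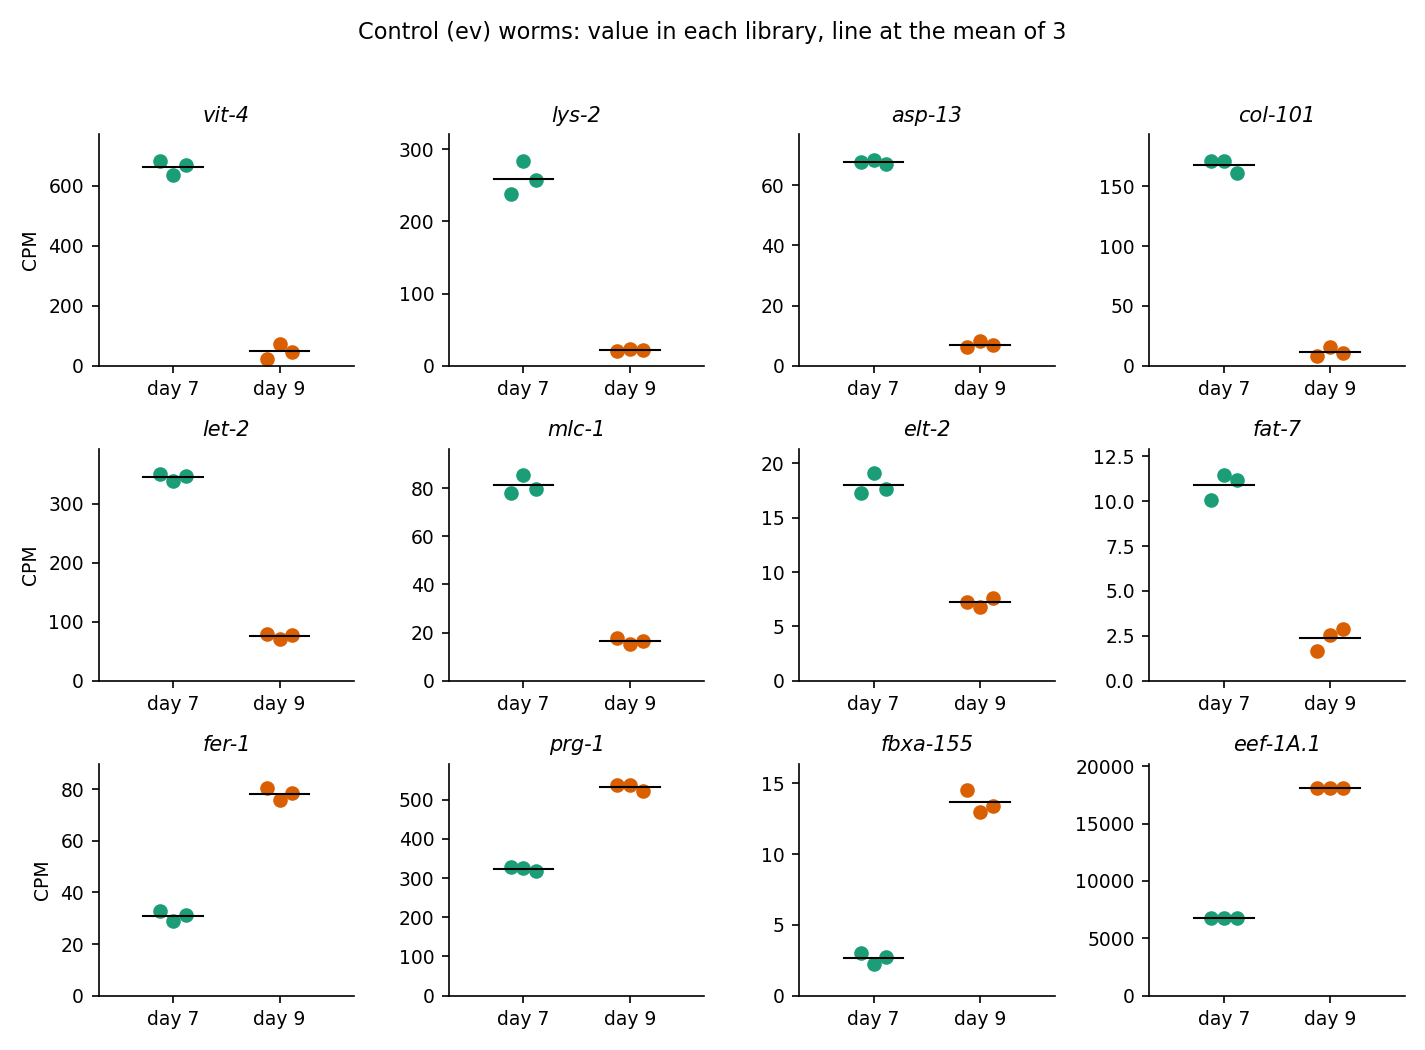
CPM in each of the 3 day 7 and 3 day 9 ev libraries for 12 genes (dots; lines are means; each axis starts at 0). The first 8 genes are lower at day 9, *vit-4* going from 636 to 682 CPM down to 22.8 to 73.7 CPM, and the last 4 are higher, and no gene shown has overlapping days.

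Lysosomal proteases were among the most uniform groups. All 12 aspartic proteases of the *asp* family (cathepsin D-like) fell, with a median log2FC of -2.25, against 16.6% of all genes. Their summed level was 7348 to 7566 CPM in the day 7 libraries and 2032 to 2208 CPM in those of day 9. *asp-13* (WBGene00017881, chromosome V, 8641602 to 8643193) was at 67.8, 68.2 and 67.0 CPM in the day 7 libraries and 6.16, 8.15 and 6.79 CPM in the day 9 libraries (log2FC -3.10, SE 0.17, adjusted P = 1.92e-14). The day 7 libraries lay close together and far above those of day 9. *asp-2* was at 351, 332 and 324 CPM at day 7 and 45.8, 42.4 and 43.7 CPM at day 9 (log2FC -2.90, SE 0.22, adjusted P = 1.57e-11). *asp-3* was at 586, 535 and 519 CPM at day 7 and 82.9, 83.0 and 84.5 CPM at day 9 (log2FC -2.69, SE 0.16, adjusted P = 2.57e-13). *asp-1* was at 2091, 1999 and 1999 CPM at day 7 and 414, 391 and 443 CPM at day 9 (log2FC -2.29, SE 0.18, adjusted P = 4.96e-11). *asp-6* was at 3223, 3223 and 3223 CPM at day 7 and 1399, 1242 and 1338 CPM at day 9 (log2FC -1.28, SE 0.10, adjusted P = 2.61e-11), and its rank in the table went from 9 in each day 7 library to 56, 67 and 60. *asp-10* fell from 51.3 to 9.67 CPM (log2FC -2.30). *asp-8*, the least abundant of those named, fell from 2.87 to 0.379 CPM (log2FC -1.49).

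Of 19 cysteine cathepsins of the B, L, Z and F types, 14 fell and 1 rose, with a median log2FC of -1.001. *cpl-1*, which encodes cathepsin L, was at 891, 885 and 865 CPM at day 7 and 218, 199 and 213 CPM at day 9 (log2FC -2.06, SE 0.20, adjusted P = 1.25e-09). The cathepsin B-like gene *cpr-6* was at 488, 477 and 468 CPM at day 7 and 75.4, 77.0 and 72.8 CPM at day 9 (log2FC -2.65, SE 0.17, adjusted P = 7.9e-13). Both genes lost most of their signal in every day 9 library. *F57F5.1*, another cathepsin B-like gene, was at 203, 199 and 198 CPM at day 7 and 33.8, 39.4 and 35.3 CPM at day 9 (log2FC -2.44, SE 0.20, adjusted P = 8.97e-11). *cpr-4* was at 73.5, 81.4 and 70.1 CPM at day 7 and 21.8, 21.05 and 21.8 CPM at day 9 (log2FC -1.75, SE 0.072, adjusted P = 1.57e-21). *cpr-5*, *cpr-3*, *F32H5.1* and *cpr-8* had smaller falls in log2(CPM + 1), with log2FC of -1.21, -1.001, -0.85 and -0.66. The value of *cpr-8* depended on the pseudocount and was -0.22 with one of 5 CPM, short of the threshold. Its size is therefore no measure of how mild the fall was. The cathepsin A genes *ctsa-1* and *ctsa-2* fell, with log2FC of -1.18 and -1.33.

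The same direction held for lysosomal hydrolases of lipids and sugars. Of 6 lysosomal lipases of the *lipl* family, 5 fell and none rose. *lipl-5* was at 144, 147 and 134 CPM at day 7 and 16.14, 18.7 and 18.3 CPM at day 9 (log2FC -2.93, SE 0.11, adjusted P = 2.41e-18). *aagr-1*, an acid alpha-glucosidase, was at 55.8, 52.9 and 53.4 CPM at day 7 and 8.95, 9.18 and 8.59 CPM at day 9 (log2FC -2.47, SE 0.094, adjusted P = 1.72e-22). In both, the lowest day 7 library was several times the highest day 9 library. *asah-1*, an acid ceramidase, fell from 71.3 to 19.4 CPM (log2FC -1.82). Of 47 other lysosomal proteins, 26 fell and 5 rose (median log2FC -0.58). The V-ATPase is the pump that acidifies the lysosome. Of its 21 subunits, 8 fell and none rose, with a median log2FC of -0.42. *hlh-30*, the TFEB-type activator of lysosome and autophagy genes, was at 86.9, 98.8 and 90.2 CPM at day 7 and 57.5, 51.4 and 56.2 CPM at day 9 (log2FC -0.73, SE 0.07, adjusted P = 1.99e-11). Of 30 core autophagy genes, 4 fell and none rose, with a median log2FC of 0.00. Many lysosomal genes are expressed in the intestine, whose markers fell over the same days by the values above, and the part of that fall in the lysosomal result was not tested.

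Secreted immune effectors fell broadly. Of 12 lysozymes, 7 fell and none rose (median log2FC -1.09). *lys-2* (WBGene00003091, chromosome V, 10280307 to 10281474) was at 237, 284 and 257 CPM in the day 7 libraries and 19.8, 23.3 and 22.1 CPM in the day 9 libraries (log2FC -3.52, SE 0.18, adjusted P = 1.27e-14), and its day 9 libraries lay close together far below those of day 7. *lys-8* was at 292, 289 and 273 CPM at day 7 and 46.8, 44.1 and 46.7 CPM at day 9 (log2FC -2.61, SE 0.21, adjusted P = 5.94e-11). *lys-7* was at 2412, 2305 and 2412 CPM at day 7 and 846, 795 and 799 CPM at day 9 (log2FC -1.55, SE 0.20, adjusted P = 2.51e-07). Of 19 saposin-like *spp* genes, which encode membrane-active peptides, 14 fell and 1 rose (median log2FC -1.52). *spp-5* fell from 513 to 88.2 CPM (log2FC -2.53). Of 39 antimicrobial peptide genes of the *cnc*, *nlp*, *abf* and *fip* families, 26 fell and 1 rose (median log2FC -0.83). *nlp-29*, which the epidermis induces after fungal infection or wounding, was at 28.3, 25.5 and 27.6 CPM at day 7 and 7.50, 7.47 and 8.48 CPM at day 9 (log2FC -1.67, SE 0.22, adjusted P = 1.52e-07).

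C-type lectins, a large family with many infection-induced members, were more mixed. Of those tested, 59 fell, 14 rose and 49 did not pass, and the median log2FC was -0.45. The abundant members fell far, and the summed level of the family went from between 5271 and 5427 CPM to between 2134 and 2244 CPM. *clec-63* was at 1399, 1352 and 1268 CPM at day 7 and 165, 162 and 169 CPM at day 9 (log2FC -3.01, SE 0.18, adjusted P = 2.66e-13). *clec-50* was at 421, 450.1 and 411 CPM at day 7 and 36.1, 44.2 and 39.3 CPM at day 9 (log2FC -3.39, SE 0.22, adjusted P = 1.19e-12). Neither had overlapping days. *clec-76* stayed below 1 CPM in all 6 libraries and did not pass the log2FC threshold (log2FC -0.30, adjusted P = 0.0151). In a list of 26 genes that joins infection response genes with *dod* genes and heme-responsive *hrg* genes, 18 fell and 2 rose. The count is therefore not one of infection response genes alone. *T24B8.5*, a small secreted-peptide gene used as a reporter of p38 MAPK immunity, was at 50.1, 53.4 and 51.3 CPM at day 7 and 6.68, 9.24 and 7.08 CPM at day 9 (log2FC -2.61, SE 0.19, adjusted P = 5.54e-12). *dod-19*, named for its place downstream of DAF-16, was at 517, 572 and 522 CPM at day 7 and 133, 131 and 133 CPM at day 9 (log2FC -2.01, SE 0.099, adjusted P = 1.83e-15). Other genes with large falls belonged to none of these families. *C17F4.7* was at 1964, 2035 and 2129 CPM at day 7 and 161, 204 and 176 CPM at day 9 (log2FC -3.50, SE 0.21, adjusted P = 1.51e-13), *F13D12.6* fell from 319.9 to 32.8 CPM (log2FC -3.25), and *oac-32*, an O-acyltransferase homologue, fell from 31.1 to 2.36 CPM (log2FC -3.26).

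Cuticle collagens split into a small set with very large falls and a majority that did not pass the test. Of the tested *col* genes, 34 fell, 4 rose and 81 did not pass, so that the median log2FC was -0.12. The summed level of the family nevertheless fell from between 3141 and 3326 CPM to between 331 and 442 CPM. Among the 20 genes with the largest falls, 10 were *col* genes and 3 were vitellogenins. *col-181* was at 824, 799 and 766 CPM at day 7 and 52.7, 70.8 and 58.3 CPM at day 9 (log2FC -3.70, SE 0.35, adjusted P = 7.78e-10). *col-101* (WBGene00000675, chromosome IV, 325435 to 327020) was at 171, 171 and 162 CPM in the day 7 libraries and 8.01, 15.6 and 10.2 CPM in the day 9 libraries (log2FC -3.83, SE 0.29, adjusted P = 2.18e-11). *col-80* was at 38.2, 34.9 and 35.2 CPM at day 7 and 1.42, 5.06 and 2.85 CPM at day 9 (log2FC -3.27, SE 0.30, adjusted P = 4.65e-10). In all 3, day 9 replicate 2 was the highest and day 9 replicate 1 the lowest of its group, as for *vit-3* and *vit-4*. *col-19*, an adult-specific collagen, fell from 29.2 to 3.10 CPM (log2FC -2.92). Of 20 body shape and blister collagens, 4 fell and none rose, *dpy-14* among them (88.4, 91.1 and 88.9 CPM at day 7 and 30.7, 40.2 and 34.9 CPM at day 9; log2FC -1.33). Close collagen paralogs can share reads. Of the hypodermis markers, which mark the tissue that makes the cuticle, 4 of 12 were lower and none higher, with a median log2FC of -0.37. This list shares *col*, *dpy*, *rol* and *bli* genes with the collagen lists above, so the counts are not separate.

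Basement membrane genes fell together. Of 21 tested, 17 fell and none rose, with a median log2FC of -0.95 and a summed level of 1962 to 2057 CPM at day 7 and 884 to 897 CPM at day 9. *let-2* (WBGene00002280, chromosome X, 16380597 to 16389340), an alpha chain of type IV collagen, was at 350.0, 339 and 347 CPM in the day 7 libraries and 79.1, 71.3 and 77.1 CPM in the day 9 libraries (log2FC -2.17, SE 0.20, adjusted P = 9.29e-10). *emb-9*, the other type IV collagen chain, was at 193, 186 and 185 CPM at day 7 and 56.0, 53.4 and 54.3 CPM at day 9 (log2FC -1.76, SE 0.19, adjusted P = 9.69e-09). Day 7 and day 9 were far apart for both partner chains. *nid-1*, which encodes nidogen, fell from 53.7 to 16.9 CPM (log2FC -1.61). Of 53 transthyretin-related *ttr* genes, a family of mostly secreted proteins, 30 fell and 4 rose (median log2FC -0.62). *ttr-16* was at 432, 465 and 463 CPM at day 7 and 90.001, 87.3 and 82.0 CPM at day 9 (log2FC -2.38, SE 0.25, adjusted P = 8.41e-09).

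Sarcomere genes of the body wall muscle fell. Of 30 muscle markers, 22 fell and none rose, with a median log2FC of -1.04 and a summed level of 3345 to 3488 CPM at day 7 and 1808 to 1861 CPM at day 9. Some members are also in the basement membrane list. *mlc-1* (WBGene00003369, chromosome X, 17459210 to 17460778), a myosin regulatory light chain, was at 78.2, 85.7 and 79.6 CPM in the day 7 libraries and 17.9, 15.4 and 16.39 CPM in the day 9 libraries (log2FC -2.23, SE 0.18, adjusted P = 4.03e-11). *pat-10*, which encodes body wall troponin C, was at 109, 113 and 106 CPM at day 7 and 24.1, 24.4 and 24.2 CPM at day 9 (log2FC -2.13, SE 0.15, adjusted P = 3.54e-12). *unc-27*, a troponin I gene, was at 73.7, 78.3 and 74.2 CPM at day 7 and 15.2, 16.99 and 15.7 CPM at day 9 (log2FC -2.17, SE 0.19, adjusted P = 1.69e-10). The 3 genes fell to nearly the same degree, with no overlap of days. In the pharynx, 7 of 14 markers fell and none rose (median log2FC -0.47). The pharyngeal myosin gene *myo-2* was at 14.7, 16.7 and 15.4 CPM at day 7 and 6.30, 6.01 and 5.67 CPM at day 9 (log2FC -1.24, SE 0.23, adjusted P = 3.24e-05). Few neuronal markers passed the test. Of 29 tested, 3 fell and none rose, with a median log2FC of -0.19 and a summed level of 789 to 845 CPM at day 7 and 673 to 684 CPM at day 9. *egl-3*, a proprotein convertase that cuts neuropeptide precursors, fell from 62.7 to 35.4 CPM (log2FC -0.81). Of 59 neuropeptide genes, 13 fell and 1 rose. The largest of these falls was that of *nlp-40*, a peptide that the intestine releases to time defecation, which was at 187, 192 and 195.7 CPM at day 7 and 52.8, 52.1 and 53.6 CPM at day 9 (log2FC -1.84, SE 0.15, adjusted P = 4.24e-11).

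Many genes of fat metabolism and fat transport fell. Of 17 lipid-binding *lbp* and *far* genes, 13 fell and none rose (median log2FC -1.19). *far-2*, a fatty acid and retinol binding protein, was at 5419, 5419 and 5419 CPM at day 7 and 2129, 2091 and 2067 CPM at day 9, with its rank going from 5 in each day 7 library to 24, 25 and 26 (log2FC -1.37, SE 0.18, adjusted P = 2.07e-07). *far-3* was at 172, 208 and 187 CPM at day 7 and 29.3, 34.6 and 30.6 CPM at day 9 (log2FC -2.55, SE 0.23, adjusted P = 3.91e-10), and *lbp-2* fell from 455 to 143 CPM (log2FC -1.66). Of 22 desaturases and elongases, 12 fell and 3 rose. *fat-7* (WBGene00001399, chromosome V, 7151353 to 7153146), a stearoyl-CoA desaturase, was at 10.1, 11.5 and 11.2 CPM in the day 7 libraries and 1.66, 2.53 and 2.90 CPM in the day 9 libraries (log2FC -1.84, SE 0.13, adjusted P = 5.47e-15). *fat-5*, a palmitoyl-CoA desaturase, was at 71.9, 71.3 and 68.1 CPM at day 7 and 20.9, 19.6 and 21.7 CPM at day 9 (log2FC -1.72, SE 0.21, adjusted P = 1.02e-07). *fat-2*, a delta-12 desaturase, was at 557, 565 and 584 CPM at day 7 and 133, 145 and 139 CPM at day 9 (log2FC -2.02, SE 0.17, adjusted P = 1.66e-10). All 3 desaturases had separate ranges on the 2 days. Of 43 fatty acid oxidation genes, 14 fell and 4 rose. *acdh-1*, an enzyme of the propionate shunt, and *hacd-1* were among the largest falls. *acdh-1* was at 103.998, 93.9 and 98.3 CPM at day 7 and 10.99, 21.5 and 16.3 CPM at day 9 (log2FC -2.58, SE 0.28, adjusted P = 1.46e-08), and *hacd-1* was at 29.4, 31.5 and 28.5 CPM at day 7 and 2.75, 3.91 and 4.19 CPM at day 9 (log2FC -2.75, SE 0.091, adjusted P = 2.41e-24). *ech-7*, an enoyl-CoA hydratase homologue, was at 21.5, 19.5 and 20.6 CPM at day 7 and 2.19, 2.91 and 2.71 CPM at day 9 (log2FC -2.58, SE 0.08, adjusted P = 3.32e-25), and *acox-5*, an acyl-CoA oxidase gene, fell from 14.3 to 3.23 CPM (log2FC -1.86).

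The methionine cycle enzyme *sams-1*, an S-adenosylmethionine synthetase, fell from 68.7 to 19.03 CPM (log2FC -1.80), and *pmt-1*, a phosphoethanolamine methyltransferase of phosphatidylcholine synthesis, fell from 153 to 51.6 CPM (log2FC -1.55). Of 26 genes of both routes, 8 fell and 1 rose. *pck-1*, which encodes the gluconeogenic enzyme PEPCK, fell from 53.7 to 13.8 CPM (log2FC -1.89). *icl-1*, the glyoxylate cycle enzyme, was at 281, 280.3 and 263 CPM at day 7 and 152, 129.6 and 149.6 CPM at day 9 (log2FC -0.93, SE 0.40, adjusted P = 0.0412). Its call was lost whichever of the 6 libraries was left out, with adjusted P between 0.0644 and 0.0991 in limma, although its days did not overlap. Of 26 TCA cycle and glyoxylate enzymes, 9 fell and none rose (median log2FC -0.17), and of 19 glycolysis enzymes, 4 fell and 1 rose.

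Most detoxification enzymes that passed the test fell. Of 61 UDP-glucuronosyltransferases, 38 fell and none rose (median log2FC -0.64). *ugt-44* was at 27.3, 24.4 and 29.1 CPM at day 7 and 4.48, 5.96 and 4.51 CPM at day 9 (log2FC -2.23, SE 0.25, adjusted P = 1.93e-08). Of 38 glutathione S-transferases, 16 fell and none rose, and of 63 cytochrome P450 genes, 23 fell and 3 rose. *gst-4*, a target of the oxidative stress factor SKN-1, was at 11.9, 10.5 and 12.05 CPM at day 7 and 2.15, 2.77 and 3.05 CPM at day 9 (log2FC -1.78, SE 0.14, adjusted P = 1.7e-12). *cyp-35A2*, a P450 gene, fell from 19.1 to 7.35 CPM (log2FC -1.27). Of 19 ferritins, metallothioneins and metal transporters, 7 fell and 2 rose. Of 27 superoxide dismutases, catalases, peroxiredoxins and thioredoxins, 6 fell and 4 rose. The catalase gene *ctl-2* was at 57.3, 59.3 and 54.8 CPM at day 7 and 29.2, 25.6 and 27.1 CPM at day 9 (log2FC -1.04, SE 0.12, adjusted P = 1.56e-08). *gpx-5*, a glutathione peroxidase homologue, fell from 25.9 to 5.61 CPM (log2FC -2.03). *ftn-2*, a ferritin gene, was at 162, 169.5 and 159 CPM at day 7 and 51.5, 55.1 and 51.7 CPM at day 9 (log2FC -1.61, SE 0.14, adjusted P = 1.23e-10). *sodh-1*, a sorbitol dehydrogenase homologue, was at 7.20, 11.4 and 8.73 CPM at day 7 and 5.80, 4.23 and 5.52 CPM at day 9 (log2FC -0.70, adjusted P = 0.0157 in limma), and this call was lost without day 7 replicate 2 (adjusted P = 0.0886) or without day 9 replicate 2 (adjusted P = 0.0707).

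Respiratory chain transcripts of the mitochondrial genome fell and those of the nucleus mostly did not. Of 11 subunits encoded by mitochondrial DNA, 8 fell and none rose (median log2FC -0.64). *ctb-1*, cytochrome b, was at 996, 891 and 1103 CPM at day 7 and 576, 691 and 639.5 CPM at day 9 (log2FC -0.65, SE 0.10, adjusted P = 3.29e-06). *ctc-2*, a subunit of complex IV, was at 260.0, 247 and 264 CPM at day 7 and 133, 164 and 134 CPM at day 9 (log2FC -0.84, SE 0.093, adjusted P = 7.07e-09). *atp-6*, a subunit of ATP synthase, was at 374, 328 and 426 CPM at day 7 and 200.04, 219 and 224 CPM at day 9 (log2FC -0.80, SE 0.12, adjusted P = 1.06e-06). Each gene's lowest day 7 library was above its highest day 9 library. These libraries were made from polyA-selected RNA. Of 38 nuclear oxidative phosphorylation genes, 1 fell and 1 rose, with a median log2FC of -0.08. The gene that fell was *asb-2*, an ATP synthase subunit, which went from 133 to 79.8 CPM (log2FC -0.73). The gene that rose was *cyc-2.1*, cytochrome c, which was at 375, 383 and 374 CPM at day 7 and 555, 579.9 and 533 CPM at day 9 (log2FC 0.56, SE 0.091, adjusted P = 5.49e-06). *cco-1* itself was at 159, 165 and 143 CPM at day 7 and 127, 131 and 127 CPM at day 9 and did not pass the log2FC threshold (log2FC -0.27). Mitochondrial ribosomal proteins went the other way from the mitochondrial transcripts. Of 66 tested, 19 rose and none fell, with a median log2FC of 0.42, and in 63 of the 66 every day 9 library was above every day 7 library, against 41.6% of all genes. *mrps-24* was at 18.2, 15.8 and 16.02 CPM at day 7 and 29.5, 28.2 and 31.1 CPM at day 9 (log2FC 0.79, SE 0.10, adjusted P = 2.37e-08), and *mrpl-21* was at 11.5, 12.57 and 10.9 CPM at day 7 and 19.99, 21.4 and 19.6 CPM at day 9 (log2FC 0.76, SE 0.09, adjusted P = 2.33e-09).

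Cytosolic ribosomal proteins were close to flat, with 1 of 81 higher, 2 lower and a median log2FC of 0.13. Of 28 translation factors, 6 rose and 2 fell. Beside *eef-1A.1*, the elongation factor gene *eef-2* rose from 4771 to 10758 CPM, at ranks of 6 in each day 7 library and 2, 2 and 3 in those of day 9 (log2FC 1.15). *eef-1A.2*, whose protein is nearly the same as that of *eef-1A.1*, fell instead. It was at 2731, 2586 and 2635 CPM at day 7 and 1655, 1711 and 1767 CPM at day 9 (log2FC -0.63, SE 0.073, adjusted P = 1.59e-08). Reads of the 2 copies can be hard to tell apart, and how they were divided between the copies was not tested. *iff-2*, an eIF5A gene, fell from 188 to 85.8 CPM (log2FC -1.12). *lpd-7*, a homologue of the ribosome assembly factor pescadillo, was at 426, 419 and 442 CPM at day 7 and 962, 989.6 and 972 CPM at day 9 (log2FC 1.18, SE 0.051, adjusted P = 1.07e-20).

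Among the gene lists, the sperm genes had the largest share of members that rose. Of 83 tested, 57 rose and 1 fell, against 17.1% of all genes higher, with a median log2FC of 0.66. Their summed level was 833 to 884 CPM in the day 7 libraries and 1415 to 1499 CPM in those of day 9. *fer-1* (WBGene00001414, chromosome I, 8623012 to 8631202), the sperm ferlin needed for membranous organelle fusion, was at 32.8, 28.8 and 31.1 CPM in the day 7 libraries and 80.5, 75.7 and 78.3 CPM in the day 9 libraries (log2FC 1.31, SE 0.089, adjusted P = 3.96e-15). *spe-8*, a tyrosine kinase of sperm activation, was at 3.51, 3.94 and 3.55 CPM at day 7 and 13.8, 11.6 and 13.8 CPM at day 9 (log2FC 1.59, SE 0.097, adjusted P = 1.22e-16). *spe-4*, a presenilin-family protein of spermatogenesis, was at 6.04, 6.14 and 5.77 CPM at day 7 and 17.01, 17.02 and 17.3 CPM at day 9 (log2FC 1.38, SE 0.097, adjusted P = 5.28e-15). In each gene, all day 9 libraries were more than 2 times the highest day 7 library. The list includes major sperm protein genes, which are near-identical and whose single values are uncertain. Genes that act in spermatogenesis by small RNAs rose alongside. *alg-3* was at 15.7, 13.8 and 14.8 CPM at day 7 and 41.1, 38.4 and 41.4 CPM at day 9 (log2FC 1.39, SE 0.09, adjusted P = 5.98e-16), and its partner *alg-4* was at 16.414, 15.9 and 15.2 CPM at day 7 and 40.8, 39.1 and 37.8 CPM at day 9 (log2FC 1.26, SE 0.081, adjusted P = 5.62e-16). Both encode Argonautes of the male germline. *htas-1*, the sperm histone H2A, was at 4.04, 4.18 and 3.62 CPM at day 7 and 10.9, 10.7 and 11.2 CPM at day 9 (log2FC 1.27, SE 0.099, adjusted P = 7.07e-14).

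Of 40 general germline markers, 15 rose, none fell and 25 did not pass the test (median log2FC 0.43), and their summed level was 5451 to 5489 CPM at day 7 and 6941 to 7104 CPM at day 9. *prg-1* (WBGene00004178, chromosome I, 7585329 to 7588367), the Piwi protein that binds piRNAs, was at 329.04, 325 and 319 CPM in the day 7 libraries and 537, 537 and 522 CPM in the day 9 libraries (log2FC 0.71, SE 0.038, adjusted P = 4.33e-18). *rec-8*, a meiotic cohesin, was at 111.9, 110.4 and 111 CPM at day 7 and 187, 181.4 and 187 CPM at day 9 (log2FC 0.73, SE 0.052, adjusted P = 5.28e-15). *fbf-1*, an RNA-binding regulator of germline stem cells, was at 17.6, 18.8 and 17.2 CPM at day 7 and 39.95, 39.7 and 39.7 CPM at day 9 (log2FC 1.11, SE 0.12, adjusted P = 1.09e-09). The libraries of each day lay close together and apart from the other day in all 3. Of 20 Argonautes, 6 rose and 3 fell. The germline Argonaute gene *ppw-2* rose from 134 to 297 CPM (log2FC 1.15), and *alg-1*, the microRNA Argonaute, fell from 93.7 to 57.1 CPM (log2FC -0.70). Of 50 DNA repair genes, 17 rose and none fell, with a median log2FC of 0.43. The RecQ helicases *rcq-5* and *wrn-1* rose, the former at 108, 105 and 107 CPM at day 7 and 179, 176 and 183 CPM at day 9 (log2FC 0.74, SE 0.052, adjusted P = 4.69e-15) and the latter from 103 to 167 CPM (log2FC 0.69). *xpd-1*, the TFIIH helicase of nucleotide excision repair, rose from 39.6 to 69.2 CPM (log2FC 0.79), and *smc-4*, a condensin subunit, from 399 to 683 CPM (log2FC 0.78). Of 41 histone genes, 19 rose and 5 fell, and copies of replication-dependent histones share reads.

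Oocyte and embryo genes did not rise with the germline list. Of 28 oocyte and eggshell markers, 2 fell and none rose, with a median log2FC of 0.02. Those that fell were the eggshell permeability barrier genes *perm-2*, at 2067, 2218 and 2067 CPM at day 7 and 989.6, 885 and 1023 CPM at day 9 (log2FC -1.13, SE 0.095, adjusted P = 8.1e-11), and *perm-4*, at 2537, 2635 and 2537 CPM at day 7 and 1268, 1068 and 1313 CPM at day 9 (log2FC -1.08, SE 0.085, adjusted P = 1.77e-11). The ranks of *perm-4* went from 16, 14 and 16 to 65, 84 and 62. Of 36 early embryo genes, which are transcribed from the zygotic genome, 10 fell and 1 rose, with a median log2FC of -0.34 and a summed level of 328.8 to 348 CPM at day 7 and 240.3 to 259.6 CPM at day 9. *sdz-28* was at 12.9, 12.2 and 12.2 CPM at day 7 and 6.59, 8.001 and 6.98 CPM at day 9 (log2FC -0.72, SE 0.10, adjusted P = 1.12e-07), and *sdz-6* fell from 2.67 to 0.622 CPM (log2FC -1.18). The part of embryos held inside the worms, or of progeny, in these values was not tested.

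**Figure D2:**
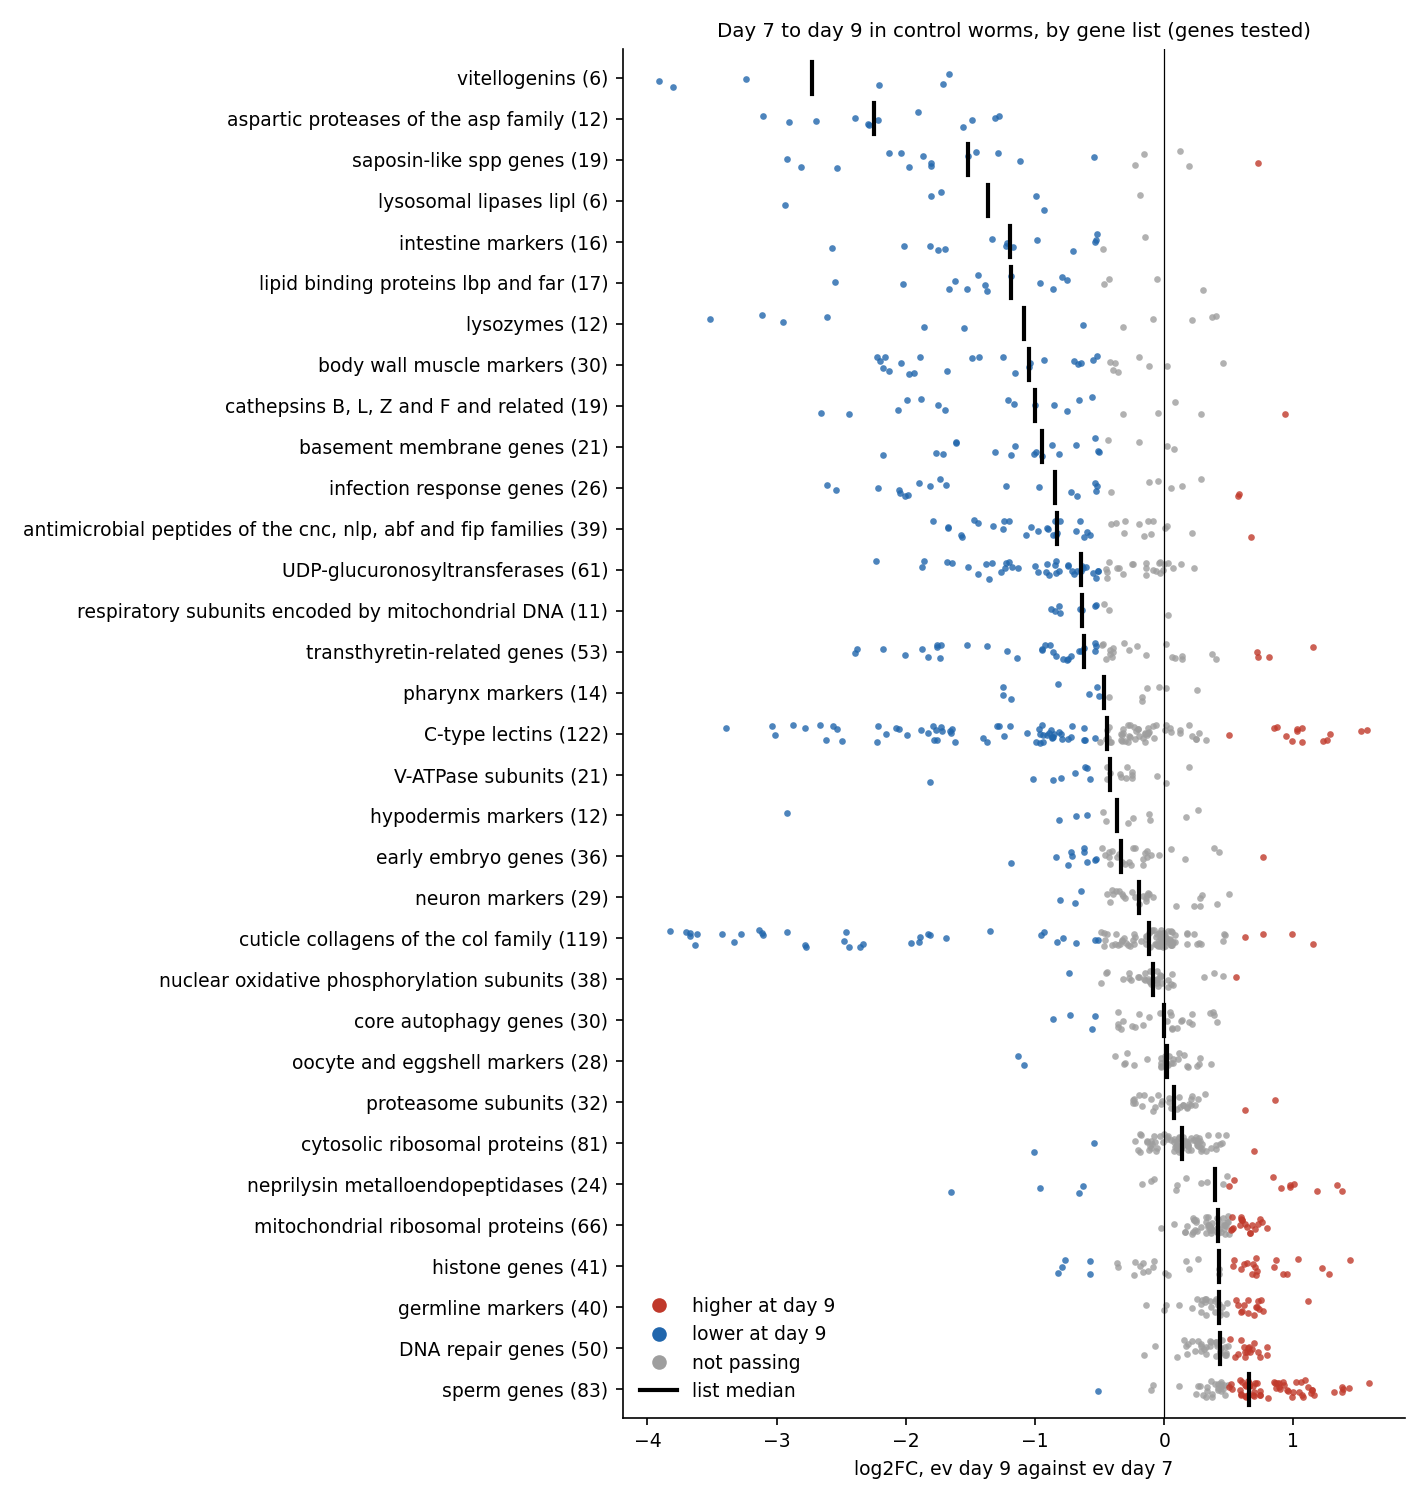
Distribution of day 9 against day 7 log2FC for the tested genes of 33 lists in ev worms (each point a gene, red where higher and blue where lower by the test, grey otherwise; bars are medians). Yolk, *asp* protease, muscle and basement membrane lists lie to the left of 0, with a median of -2.25 for the *asp* family, and sperm genes lie to the right, with a median of 0.66.

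The genes with the largest log2FC upwards were low at day 7. The 20 largest rises among genes reaching a mean of 10 CPM had log2FC of 1.601 to 2.24, with day 7 means of 1.32 to 4.89 CPM and day 9 means of 10.02 to 18.4 CPM, and 16 were protein-coding genes and 4 pseudogenes. *Y46H3A.5* (WBGene00021601, chromosome V, 1811345 to 1814884) was at 1.21, 1.49 and 1.27 CPM at day 7 and 11.4, 9.01 and 9.67 CPM at day 9 (log2FC 2.24, SE 0.14, adjusted P = 9.11e-17). The pseudogene *W03D8.10* was at 3.59, 4.18 and 3.62 CPM at day 7 and 19.6, 18.1 and 17.6 CPM at day 9 (log2FC 2.02, SE 0.15, adjusted P = 2.76e-14), and *wht-5*, an ABC transporter gene of the White family, was at 3.94, 4.01 and 4.38 CPM at day 7 and 16.002, 14.03 and 15.9 CPM at day 9 (log2FC 1.67, SE 0.12, adjusted P = 3.55e-15). The F-box gene *fbxa-155* (WBGene00007323, chromosome III, 10007966 to 10010217) was at 3.05, 2.24 and 2.75 CPM in the day 7 libraries and 14.5, 12.99 and 13.4 CPM in the day 9 libraries (log2FC 2.000, SE 0.13, adjusted P = 1.02e-15). Genes of this kind were named only where the days did not overlap. Of 295 tested F-box genes, 48 were higher and 59 lower, beside 17.1% higher and 16.6% lower among all genes tested. Of 24 neprilysins, membrane metalloendopeptidases that cut short peptides, 10 were higher and 4 lower. *nep-23* was at 3.94, 4.50 and 3.47 CPM at day 7 and 13.3, 10.3 and 12.2 CPM at day 9 (log2FC 1.38, SE 0.11, adjusted P = 3.23e-13), and *nep-8* rose from 2.96 to 9.01 CPM (log2FC 1.34). *nep-17*, by contrast, was at 164, 147 and 150.2 CPM at day 7 and 47.4, 45.2 and 51.8 CPM at day 9 (log2FC -1.65, SE 0.15, adjusted P = 5.3e-10), and *nep-22* fell from 16.3 to 7.89 CPM (log2FC -0.96).

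Of the genes with the 10 largest rises in CPM, *fln-1*, which encodes filamin, was at 570.5, 540.3 and 627 CPM at day 7 and 1056, 1041 and 1041 CPM at day 9 (log2FC 0.85, SE 0.084, adjusted P = 8.81e-10). *dhc-1*, the dynein heavy chain, was at 674, 557 and 711 CPM at day 7 and 1203, 1124 and 1219 CPM at day 9 (log2FC 0.88, SE 0.14, adjusted P = 3.39e-06), and *nmy-2*, a non-muscle myosin, rose from 748 to 1163 CPM (log2FC 0.64). *daf-2*, the insulin and IGF-1 receptor, was at 86.4, 75.5 and 89.4 CPM at day 7 and 141, 125.7 and 135 CPM at day 9 (log2FC 0.67, SE 0.12, adjusted P = 3.5e-05). *ins-23*, an insulin-like peptide gene, rose from 1.16 to 4.54 CPM (log2FC 1.36), and of 26 insulin-like peptides 5 rose and 5 fell.

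Chaperones did not move as a block. Of 28 small heat shock proteins and cytosolic chaperones, 10 rose and 4 fell. *daf-21*, which encodes Hsp90, was at 3345, 3345 and 3643 CPM at day 7 and 6750, 6750 and 5419 CPM at day 9, with ranks of 8, 8 and 7 at day 7 and 4, 4 and 5 at day 9 (log2FC 0.87, SE 0.067, adjusted P = 4.09e-12). *hsp-16.41*, a small heat shock protein, was at 8.47, 9.88 and 9.71 CPM at day 7 and 19.1, 24.2 and 20.7 CPM at day 9 (log2FC 1.11, SE 0.11, adjusted P = 3.73e-11). *hsp-70*, a stress-induced Hsp70, rose from 14.7 to 31.5 CPM (log2FC 1.06), whereas *hsp-25*, a small heat shock protein, fell from 48.97 to 22.3 CPM (log2FC -1.099). Of 21 ER chaperones and ER stress sensors, 4 fell and none rose. *hsp-3*, a BiP gene, was at 707, 734 and 737 CPM at day 7 and 437, 449 and 454 CPM at day 9 (log2FC -0.70, SE 0.087, adjusted P = 6.6e-08). Of 20 mitochondrial chaperones, proteases and stress regulators, 3 rose and 2 fell. *ymel-1*, an inner membrane AAA protease, rose from 67.5 to 105 CPM (log2FC 0.63). *hsp-60*, the mitochondrial chaperonin, was at 54.9, 50.5 and 48.6 CPM at day 7 and 31.1, 32.9 and 30.3 CPM at day 9 (log2FC -0.69, SE 0.074, adjusted P = 4.57e-10). *hsp-6*, mitochondrial Hsp70, was at 356, 342 and 343 CPM at day 7 and 328, 325 and 323 CPM at day 9 and did not pass (log2FC -0.09, adjusted P = 0.131 in limma). Of the named regulators of the mitochondrial stress response, 1 fell. *dve-1*, a homeodomain factor, was at 19.1, 20.99 and 19.4 CPM at day 7 and 12.4, 11.2 and 12.02 CPM at day 9 (log2FC -0.69, SE 0.074, adjusted P = 2.37e-10). *atfs-1*, *ubl-5*, *hda-1*, *cbp-1* and the chaperone gene *dnj-10* did not pass, with log2FC of 0.15, -0.08, 0.00, 0.06 and 0.36.

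The split between rises and falls was not the same on every chromosome. Of 2165 genes tested on chromosome X, 64 were higher (2.96%) and 714 lower (33.0%), with a median log2FC of -0.30. On chromosome I, 558 of 2555 genes were higher (21.8%) and 215 lower (8.42%), with a median of 0.18. Chromosome III resembled chromosome I, with 19.1% higher and 9.54% lower, chromosomes II and IV had 19.3% and 21.98% higher against 13.5% and 15.9% lower, and chromosome V had 15.4% higher and 20.8% lower. Germline-expressed genes are known to be scarce on the X chromosome of the worm. The same order was seen in the *cco-1* RNAi libraries, with 2.82% of X-linked genes higher and 23.1% lower at day 9. By gene type, 199 of 616 pseudogenes rose (32.3%) and 37 fell, against 2451 and 2542 of 14849 protein-coding genes. The pseudogenes were low, with a median of 1.57 CPM at day 7 against 11.1 CPM for protein-coding genes. Genes this low can reach the filter of 1 CPM in 3 libraries only through groups where they are high. The part of the filter in the split of the pseudogenes was not tested. Gene position and type were not tested as groups.

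**Figure D3:**
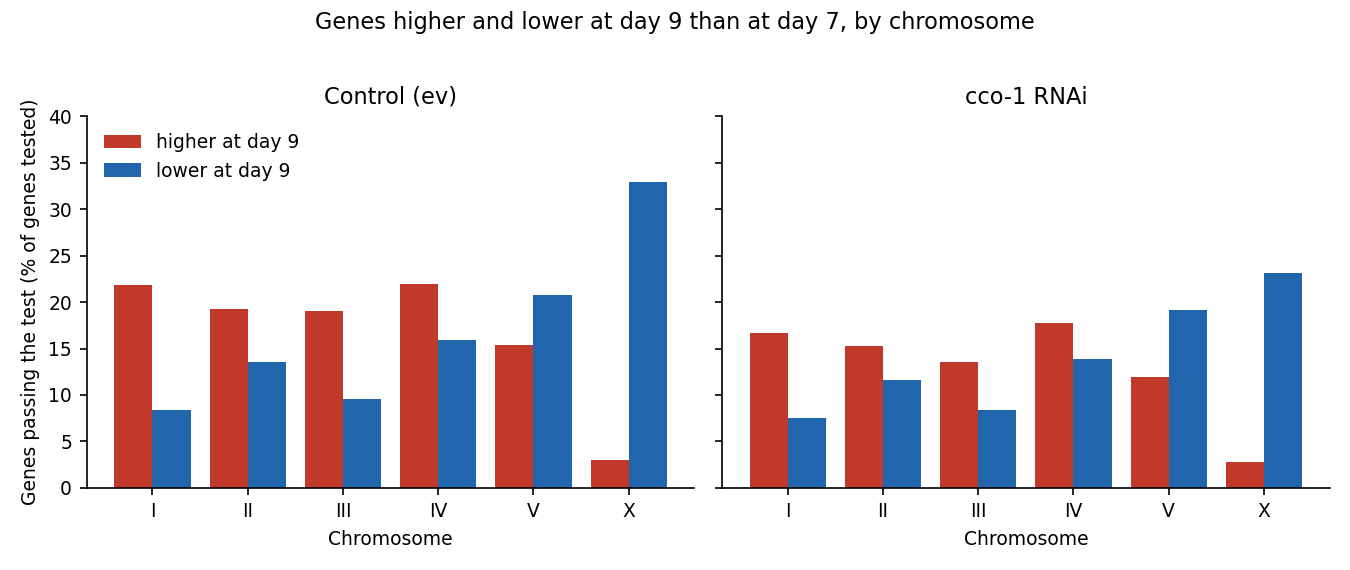
Share of tested genes higher (red) and lower (blue) at day 9 than at day 7 on each chromosome, in ev worms (left) and *cco-1* RNAi worms (right), in percent of the genes tested there. On chromosome X the lower share is 33.0% and the higher share 2.96% in ev worms, and chromosome I shows the opposite order.

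Among the ev worms, the interval from day 7 to day 9 held more calls than the intervals before and after it. From day 5 to day 7, 10.7% of all genes tested passed, and 1002 genes (6.38%) rose and 681 (4.33%) fell. From day 9 to day 11, 9.51% passed, and 413 genes (2.63%) rose and 1081 (6.88%) fell. These intervals share the day 7 and day 9 libraries with the comparison, and differences between intervals were not tested. The groups differed in their course. For yolk and *asp* genes the fall continued, as the 6 *vit* genes had a median log2FC of -0.45 from day 5 to 7, -2.72 from day 7 to 9 and -1.89 from day 9 to 11, and the 12 *asp* genes -0.07, -2.25 and -1.198. The intestine markers had no call from day 5 to day 7, 14 falls of 16 from day 7 to day 9 and 6 falls from day 9 to day 11. The muscle markers likewise had no call, then 22 and then 10 falls of 30. The sperm genes had risen before, with 63 of 83 higher from day 5 to day 7 (median 0.94), 57 from day 7 to day 9 and 8 from day 9 to day 11 (median 0.26). Early embryo genes had 22 falls of 36 from day 5 to day 7, 10 from day 7 to day 9 and 6 from day 9 to day 11. The germline, DNA repair and mitochondrial ribosome lists had no call in either neighbouring interval. Transcripts of mitochondrial DNA had no call from day 5 to 7, 8 falls of 11 from day 7 to 9 and 10 falls from day 9 to 11. The 20 genes with the largest rises had a median log2FC of 1.02 from day 5 to day 7 and 0.39 from day 9 to day 11.

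**Figure D4:**
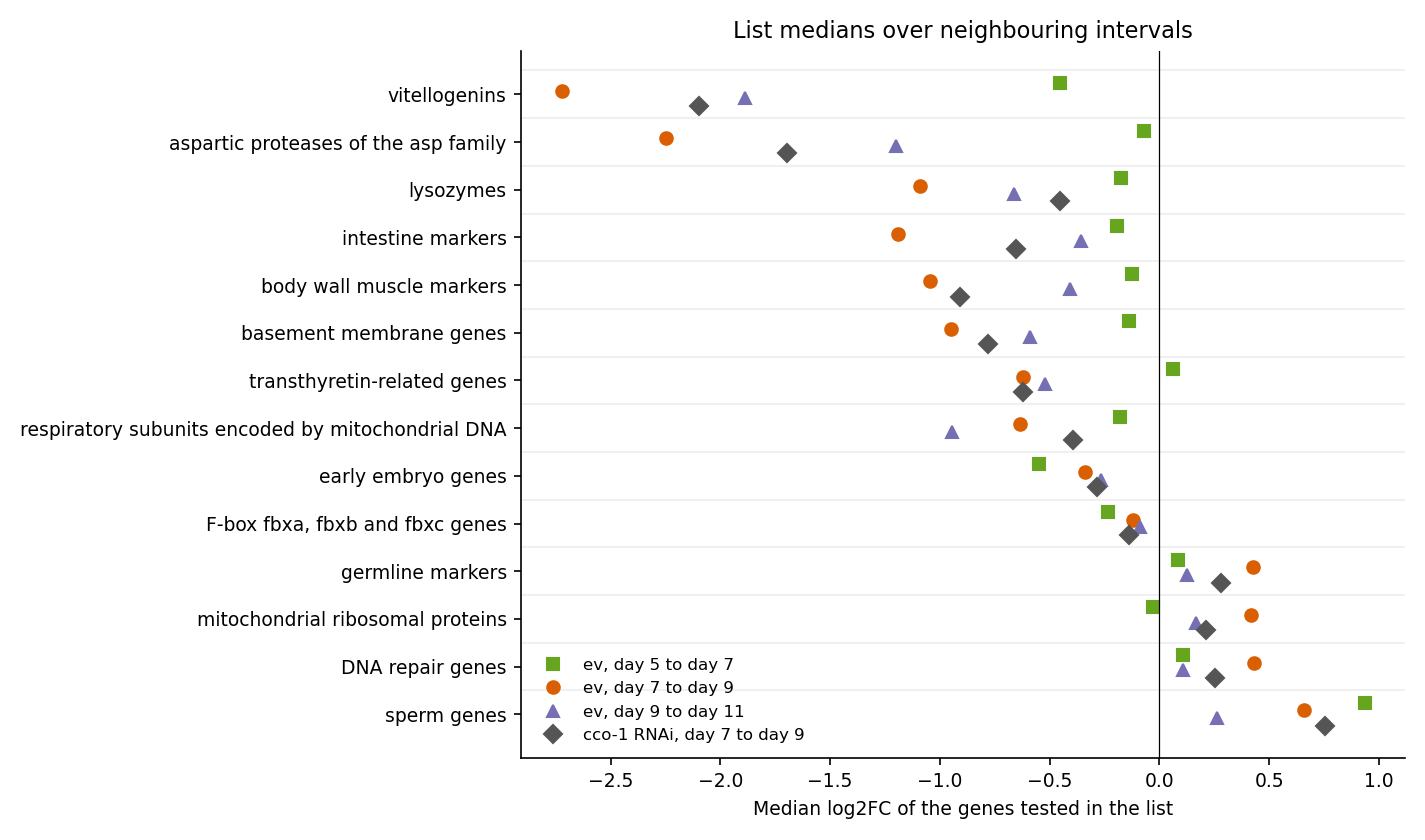
Median log2FC of 14 gene lists over 3 successive intervals in ev worms and over day 7 to day 9 in *cco-1* RNAi worms. The *vit* median is -0.45, -2.72 and -1.89 over the 3 ev intervals, and that of sperm genes is 0.94, 0.66 and 0.26.

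The *cco-1* RNAi worms of the same days form a comparison that shares no library with the ev one. A technical difference between the days that both arms shared could not be told apart from age in either comparison. In the *cco-1* RNAi libraries *cco-1* was at 87.2, 82.1 and 86.3 CPM at day 7 and 87.8, 77.8 and 84.8 CPM at day 9, below all 6 ev libraries. From day 7 to day 9, 27.2% of genes passed under *cco-1* RNAi, and 2090 genes (13.3%) rose and 2183 (13.9%) fell. Of these, 1729 were also among the rises of ev worms, which is 64.2% of the ev rises and 82.7% of the *cco-1* rises, and 1710 were among the ev falls (65.6% and 78.3%). No gene that rose in ev worms fell under *cco-1* RNAi, and 10 genes that fell in ev worms rose. The replicates of *cco-1* RNAi day 9 spread more, with a median SD of log2 values of 0.119 against 0.0747 for ev day 9. The day 7 to day 9 change itself differed between the arms in 1209 genes (7.69%), of which 741 had a higher log2FC under *cco-1* RNAi (4.72%) and 468 a lower one (2.98%). By list, the difference passed the test with a higher log2FC under *cco-1* RNAi in 5 of 16 intestine markers, 4 of 12 *asp* genes, 6 of 19 cysteine cathepsins, 6 of 19 *spp* genes and 14 of 43 fatty acid oxidation genes, and in none of the 21 basement membrane, 40 germline or 66 mitochondrial ribosome genes. It passed with a lower log2FC in 1 gene each of the *asp*, cysteine cathepsin and fatty acid oxidation lists, and of the tested *col* genes 11 were lower and 4 higher.

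Some vitellogenins differed between the arms and others did not pass. *vit-2* had a log2FC of -1.67 in ev worms and -0.07 under *cco-1* RNAi, where it kept 29967, 25810 and 29967 CPM at day 9, and the difference of 1.60 passed the test (limma, adjusted P = 2.13e-05). *vit-6* had -2.21 and -0.27 (difference 1.94, adjusted P = 2.31e-05). *vit-4* had -3.91 and -3.81, a difference of 0.11 that did not pass (adjusted P = 0.89). Among proteases, the cathepsin B-like *cpr-4* fell with log2FC -1.75 in ev worms and had -0.29 under *cco-1* RNAi (difference 1.46, adjusted P = 1.36e-12). It was at 106, 111 and 121.8 CPM at day 7 and 95.6, 82.3 and 98.3 CPM at day 9 in that arm. *asp-8* differed in the opposite sense. It was at 19.8, 19.8 and 19.1 CPM at day 7 under *cco-1* RNAi, above the ev libraries, and at 4.56, 2.55 and 4.19 CPM at day 9 (log2FC -2.14, difference -0.65, adjusted P = 0.00299). This difference rests on the pseudocount, since it was 0.25 with a pseudocount of 0.1 CPM in place of 1 CPM (adjusted P = 0.464 in limma), and without *cco-1* RNAi day 9 replicate 2 it was -0.45, short of the threshold.

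Some differences lay in genes whose levels were already apart at day 7. *fat-7* was at 0.892, 0.645 and 0.942 CPM under *cco-1* RNAi at day 7 and 1.76, 1.44 and 1.74 CPM at day 9 (log2FC 0.54), while it fell from a mean of 10.9 to 2.36 CPM in ev worms, and the difference of 2.38 was the largest among the named genes (limma, adjusted P = 1.62e-11). *oac-32* was at 2.02, 3.45 and 2.74 CPM at day 7 under *cco-1* RNAi (difference 1.98, adjusted P = 5.48e-10). *gst-4* was at 28.97, 26.9 and 25.03 CPM at day 7 and 4.63, 3.60 and 3.43 CPM at day 9 under *cco-1* RNAi, and its log2FC was lower in that arm (difference -0.75, adjusted P = 0.00712), a call that was lost with a pseudocount of 0.1 CPM. The elongation factor *eef-1A.1* rose less, at 8371 CPM in each *cco-1* RNAi library of day 7 and 11951 CPM in each of day 9 (difference -0.91, adjusted P = 0.000763). Levels of such abundant genes largely follow their ranks, and *vit-2* kept a high level at day 9 in that arm. The part of the yolk genes' ranks in this difference was not tested.

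**Figure D5:**
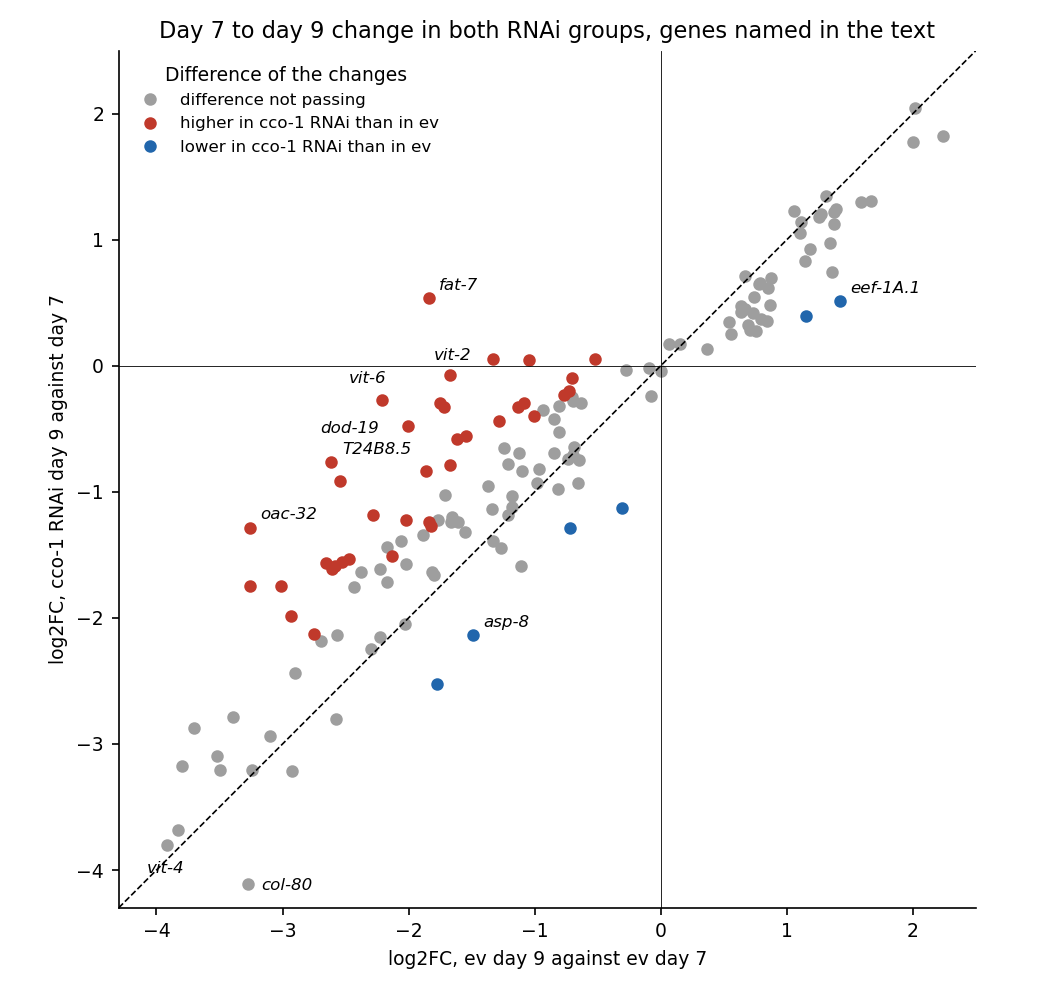
Log2FC from day 7 to day 9 in ev worms (x axis) against that in *cco-1* RNAi worms (y axis) for the 148 genes named in the text, coloured where the difference of the 2 changes passed the test (dashed line: equal change). Most coloured points lie above the line among genes that fell in ev worms, with *fat-7* farthest from it by 2.38. Many of these genes were named for their change in ev worms, which also enters the difference.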

How the data were processed

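PolyA-selected RNA of whole worms was sequenced on BGISEQ-500. By the study's methods the authors mapped reads to WBcel235 with STAR and counted unique reads over exons with htseq-count, ignoring strand. STAR 2.73a and edgeR 3.24.3 are the versions in the submitters' processing notes. The deposited values are linear CPM with nearly the same distribution in each library below the highest values, the form that quantile normalization before deposition gives. The sources used here do not spell out that step, and depth is unknown. The authors' own fold changes, P values and enrichment results, deposited beside them, were not used.

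Genes at 1 CPM or more in at least 3 of 36 libraries were fitted on log2(CPM + 1) with limma 3.58.1 (R 4.3.3, statmod 1.5.0; trended, robust variances; 12 groups; 24 residual degrees of freedom), and a gene was called at adjusted P below 0.05 (Benjamini-Hochberg, over all 15713 genes) with a log2FC beyond 0.5 in either direction. SE and P values rest on the spread between biological replicates of 3 worm pools per group, pooled for each gene over all 12 groups. They do not measure the spread of the 6 ev libraries alone. The fit was tested on simulated data. The members and gene lists were chosen with earlier results of these data known. Genes were named as the 20 largest changes in each direction reaching 10 CPM without overlap of days, up to 6 called members per list with the largest change, the 10 largest CPM changes in each direction, and proteases and regulators that the study names. Positions are from a WBcel235 annotation. Alternatives were other pseudocounts, filters, thresholds and fits, library centring, a replicate block, and each library left out. Figures used matplotlib 3.10.9 in Python 3.11.15.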

Additional observations from a re-analysis of the deposited data

Results flagged for a closer look

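The day 7 to day 9 change differed between *cco-1* RNAi and ev worms, by the limma test of the difference itself, in 43 of the 148 genes named in the text. Each value given here is the log2FC under *cco-1* RNAi minus the log2FC in ev worms. It was above 0 in 37 genes and below 0 in 6. Many of the 148 genes were named for the size of their change in ev worms, which also enters the difference. That choice can shift both this split and the share of 43 in 148, so neither stands for genes at large. Among all genes tested, 7.69% differed, with 741 above 0 and 468 below 0. Of the 43 differences, 29 passed whichever of the 12 libraries of days 7 and 9 was left out, and 14 were lost in at least 1 of these fits. The 29 include *eef-1A.1*, whose libraries had the same value within each group. Its difference was -0.911 in every such fit and could not move. Leaving out *cco-1* RNAi day 9 replicate 1 ended the calls of *lys-7*, *lys-8*, *spp-5* and *hsp-3*, and that of *asp-8* ended without *cco-1* RNAi day 9 replicate 2 and that of *elt-7* without *cco-1* RNAi day 7 replicate 3. Those of *nlp-40*, *nlp-29*, *pat-10*, *asah-1*, *hlh-30*, *sgk-1*, *hacd-1* and *sdz-28* were lost in 11, 10, 10, 6, 4, 3, 2 and 2 of the 12 fits. A fit on only the groups compared lost *lys-7*, *lys-8*, *spp-5*, *asah-1*, *pat-10* and *nlp-40*. A pseudocount of 5 CPM lost *elt-7*, *cpr-3*, *asah-1*, *clec-76*, *pat-10*, *hacd-1*, *sdz-28* and *sgk-1*, and one of 0.1 CPM lost *clec-76*, *nlp-29* and *gst-4*, with *asp-8* reversed. A log2FC threshold of 1 leaves out, by construction, each difference smaller than that.

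Among yolk and intestine genes, *vit-2* differed by 1.60, *vit-6* by 1.94, *ges-1* by 0.80, *elt-7* by 0.58 and *nlp-40* by 0.60. In all of them the log2FC of ev worms was the lower one.

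Among lysosomal genes, *asp-1* differed by 1.099, *asp-6* by 0.85, *cpr-3* by 0.60, *cpr-4* by 1.46, *cpr-6* by 1.09, *lipl-5* by 0.95, *aagr-1* by 0.94, *asah-1* by 0.55 and the regulator *hlh-30* by 0.53. *asp-8* differed in the other direction, by -0.65.

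Among immune effectors and genes with large falls, *lys-7* differed by 0.99, *lys-8* by 0.999, *clec-63* by 1.26, *spp-5* by 0.97, *nlp-29* by 0.89, *T24B8.5* by 1.85, *dod-19* by 1.53, *oac-32* by 1.98 and *F13D12.6* by 1.51. *clec-76*, which was below 1 CPM in the ev libraries of both days, differed by -0.83, a call that was lost with a pseudocount of 0.1 CPM and with one of 5 CPM.

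In metabolism and redox genes, *fat-5* differed by 1.39, *fat-7* by 2.38, *far-3* by 1.64, *hacd-1* by 0.62, *acox-5* by 1.02, *ech-7* by 0.998, *ctl-2* by 1.09, *ftn-2* by 1.03 and *gst-4* by -0.75. The catalase gene *ctl-2* had a log2FC of 0.05 under *cco-1* RNAi against -1.04 in ev worms.

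Of the other genes, the collagen gene *dpy-14* differed by 1.38, troponin C *pat-10* by 0.62, the kinase gene *sgk-1* by 0.53, the chaperone gene *hsp-3* by 0.60, and the eggshell genes *perm-2* and *perm-4* by 0.81 and 0.79. The elongation factors *eef-1A.1* and *eef-2* differed by -0.91 and -0.76, and the embryo gene *sdz-28* by -0.57. The part of the ranks of the yolk genes in the elongation factor differences was not tested.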

How the results depend on the processing

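The counts of genes higher and lower at day 9 in ev worms (2692 and 2606) stayed within 1.5 times under a pseudocount of 0.1 CPM, no filter or a filter of 5 CPM, centring of each library, fits on only the groups compared, no trended or robust variances, and each library left out (2661 to 2774 and 2555 to 2645). With a pseudocount of 5 CPM the counts of higher and lower genes were 1586 and 1541, with an absolute log2FC above 1 they were 847 and 938, and with no log2FC threshold 6089 and 4733. For *cco-1* RNAi these were 1151 and 1264, 662 and 781, and 5220 and 4171, and for the difference between the arms, counted in both directions together (1209), they were 520, 130 and 3209. For ev day 5 to day 7 they were 330 and 231, 294 and 91, and 2430 and 2248, and for ev day 9 to day 11 they were 19 and 521, 0 and 172, and 3297 and 2849. A pseudocount of 0.1 CPM gave 799 and 1698 for ev day 9 to day 11, and a filter of 5 CPM gave 433 lower genes for day 5 to day 7 and 219 higher genes for day 9 to day 11, out of fewer genes tested. With each library left out, the ranges were 1848 to 2417 and 1962 to 2409 for *cco-1* RNAi, 1106 to 1525 for the difference, 980 to 1008 and 684 to 703 for day 5 to day 7, and 393 to 542 and 1004 to 1200 for day 9 to day 11. The difference for *asp-8* reversed to 0.25 (0.246) with a pseudocount of 0.1 CPM. The cause of the shifts with the pseudocount was not tested.

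Same-numbered replicates of ev day 7 and day 9 did not deviate together (correlations of 0.0054, -0.021 and 0.00099). In 2 of the 3 day 7 libraries the correlation was closer with another number than their own. No pairing by number was seen between these days, which cannot show that the numbers carry none. Pairing by number in the *cco-1* RNAi libraries was not tested in this way. With the replicate block, the counts were 2692 and 2606 in ev worms, 2090 and 2183 under *cco-1* RNAi, 1213 for the difference, 1002 and 679 for day 5 to day 7, and 413 and 1080 for day 9 to day 11. Among the genes named, *icl-1*, *elt-7* and *sodh-1* lost their call when a library was left out, and *sdz-6*, *elt-7*, *cpr-8* and *sodh-1* with a pseudocount of 5 CPM, while *clec-76* passed with one of 0.1 CPM. Read depth is unknown, so no counting error could be set beside genes at a few CPM.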

Other observations

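Of 16 markers of the somatic gonad, spermatheca and uterus, 6 fell and 2 rose from day 7 to day 9 in ev worms. The summed level of the list nevertheless went from between 1174 and 1276 CPM to between 1763 and 1800 CPM, in a list that includes the abundant filamin gene *fln-1*. *tnt-3*, a troponin T gene, was at 28.1, 27.3 and 28.7 CPM at day 7 and 12.7, 12.57 and 12.13 CPM at day 9 (log2FC -1.11, SE 0.15, adjusted P = 4.05e-07). *egl-13*, a SOX factor of uterine cells, was at 14.3, 14.5 and 13.8 CPM at day 7 and 6.54, 6.28 and 7.36 CPM at day 9 (log2FC -0.98, SE 0.084, adjusted P = 1e-12). Both had separate ranges on the 2 days. Of 57 intraflagellar transport and cilia genes, 7 rose and 1 fell, with a median log2FC of 0.23. Among all genes tested, 17.1% rose. *dyf-3*, needed for ciliated sensory endings, was at 11.1, 11.02 and 10.3 CPM at day 7 and 19.3, 20.99 and 20.4 CPM at day 9 (log2FC 0.84, SE 0.08, adjusted P = 9.73e-12), and *che-3*, a cytoplasmic dynein heavy chain of cilia, rose from 10.9 to 17.8 CPM (log2FC 0.67). Of 13 genes of the insulin receptor pathway, 3 rose and 1 fell. *age-1*, the PI3 kinase, rose from 72.1 to 105 CPM (log2FC 0.54), and *sgk-1*, a kinase of the same route, was at 13.7, 14.7 and 12.2 CPM at day 7 and 7.29, 8.19 and 7.18 CPM at day 9 (log2FC -0.76, SE 0.097, adjusted P = 1.11e-08).

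Of 63 hedgehog-related and patched-related genes, 20 fell and 4 rose, and of 86 moulting and apical matrix genes, 16 fell and 6 rose. Of 18 chitinase and chitinase-like genes, 7 fell and 2 rose, and of 192 nuclear hormone receptors, 25 fell and 6 rose. Beside the 16.6% of all genes tested that fell, the moulting list was near that share and the nuclear hormone receptors were below it. The 32 proteasome subunits gave 2 rises and no fall (median log2FC 0.07), and 39 DNA replication genes gave 2 rises and no fall (median log2FC 0.22). Of 4 coelomocyte markers, 2 fell and none rose.

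The share of genes that passed the test varied with their level. Of 3437 genes with a mean between 5 and 20 CPM, 26.4% were higher and 23.6% lower, and of 1875 genes between 100 and 500 CPM, 8.16% were higher and 11.5% lower.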
